A study of Mus musculus with 6 samples.

Results

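The genes described here encode 10 subunits of Polycomb repressive complex 2 (PRC2), a complex that methylates histone H3 on lysine 27. They were chosen by name: Ezh1, Ezh2, Suz12, Eed, Rbbp4 and Rbbp7 of the core, and Jarid2, Mtf2, Phf1 and Phf19 of the accessory set. All 10 were on the array, among 20416 genes, and they had 167 of the 212097 probe sets that the array annotation ties to exactly 1 gene symbol. A probe set is a group of short probes that covers about an exon, and the value of a gene is the mean log2 signal of its probe sets on an array.

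RNA came from MIN6-4N cells, a line of beta cells from a mouse insulinoma, into which a plasmid had been stably introduced. In the vector group the plasmid was pcDNA3.1, and in the Meg3 group it was pcDNA3.1-mMeg3, which carries mouse Meg3, an imprinted long non-coding RNA. Both groups went through selection with G418 at 750 µg/ml for 5 weeks and were then kept in low glucose DMEM with 15% serum and 500 µg/ml G418. The labels also mention a sort, which no protocol describes. Each group is 1 picked clone sampled as 3 independent cultures, so the 6 arrays measure the spread between cultures, and what the plasmid did and what else set the clones apart cannot be told apart.

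PRC2 marks silent developmental genes. EZH2 or its relative EZH1 carries the methyltransferase, SUZ12 and EED hold the complex together and activate it, and the histone-binding proteins RBBP4 or RBBP7 complete the core. Accessory subunits divide PRC2 into forms: MTF2, PHF1 and PHF19, the Polycomb-like proteins, belong to one form and JARID2 to the other. Meg3 RNA has been reported to associate with PRC2 in other cells, through EZH2 and JARID2. These arrays measured RNA levels only, neither that association nor histone methylation.

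The next 4 stretches of promoter come from 3 members. Ezh2 and Ezh1 encode catalytic subunits that replace each other and deviated in opposite directions on vector replicate 2 and Meg3 replicate 1, arrays described further on, and Jarid2 is the member whose clones did not overlap. Each stretch is the 250 bases before an annotated start, on the strand of the gene, from RefSeq (GRCm38.p6), and Jarid2 is listed with 2 starts there. Capitals mark matches on either strand to CCAAT, the NF-Y motif, or to GGGCGG, the GC box.
Ezh2, chr6:47595031-47595280, minus strand: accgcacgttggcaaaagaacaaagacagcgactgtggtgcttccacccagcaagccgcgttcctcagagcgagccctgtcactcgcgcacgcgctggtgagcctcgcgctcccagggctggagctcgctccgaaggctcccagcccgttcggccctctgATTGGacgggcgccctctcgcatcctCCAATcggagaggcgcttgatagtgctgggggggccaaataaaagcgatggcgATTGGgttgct
Ezh1, chr11:101226464-101226713, minus strand: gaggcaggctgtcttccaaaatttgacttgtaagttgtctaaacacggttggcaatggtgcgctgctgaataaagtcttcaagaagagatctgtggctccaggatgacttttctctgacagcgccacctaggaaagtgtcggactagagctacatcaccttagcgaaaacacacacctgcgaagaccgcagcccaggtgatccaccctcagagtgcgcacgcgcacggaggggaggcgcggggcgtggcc
Jarid2 first start, chr13:44730524-44730773, plus strand: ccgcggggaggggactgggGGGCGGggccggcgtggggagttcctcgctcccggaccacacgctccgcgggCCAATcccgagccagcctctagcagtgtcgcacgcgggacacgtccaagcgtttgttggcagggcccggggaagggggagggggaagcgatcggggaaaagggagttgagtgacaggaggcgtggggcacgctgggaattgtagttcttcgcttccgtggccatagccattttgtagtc
Jarid2 other start, chr13:44731021-44731270, plus strand: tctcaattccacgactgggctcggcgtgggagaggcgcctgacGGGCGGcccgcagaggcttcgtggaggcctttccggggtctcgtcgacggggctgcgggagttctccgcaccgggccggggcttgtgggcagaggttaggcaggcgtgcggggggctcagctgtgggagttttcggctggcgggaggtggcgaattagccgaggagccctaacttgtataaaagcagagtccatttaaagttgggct
The Ezh2 stretch held 3 matches to CCAAT and 23 CpG dinucleotides. The Ezh1 stretch held 14 CpG and no match to either motif. At Jarid2 the first stretch held 1 match to each motif and 23 CpG, and the other held 1 GC box and 22 CpG. The motifs did not overlap in these stretches. Over 32851 promoter stretches of this length, CCAAT was found in 33.8% and GGGCGG in 32.7%, and the median number of CpG was 6. The E2F motif was searched as TTTCGCGC, TTTGGCGC, TTTCCCGC and TTTGCCGC on both strands. It was found in 1.86% of all stretches and among the members in those of Suz12 and Phf19, with 1 match each. A match describes the letters only.

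The Meg3 clone read higher for Meg3, and the signal does not separate RNA of the plasmid from that of the cell's own gene. Of 5 Meg3 probe sets 4 were higher and 1 lower, from -0.22 to 3.34, and 0 were called one by one. The Meg3 value was 5.63, 6.00 and 5.88 in the vector cultures and 7.24, 7.91 and 7.53 in the Meg3 cultures (a log2 difference of 1.72 ± 0.19 SE; adjusted p = 0.00756 by limma with Benjamini-Hochberg adjustment). The call was lost, with the same direction, with the brightest probe set (2.02, limma adjusted p = 0.241), with the median of the probe sets (3.33, 0.0629) and without Meg3 replicate 3 (1.74, 0.0666). Beta cell markers were present, with mean log2 values in the vector clone from 7.09 to 13.3 for 10 measured markers against a median of 6.66 over all genes. Acinar and endothelial markers lay between 5.14 and 6.09 there. Markers of alpha, delta, duct, fibroblast and immune cells ran from 4.23 for Cftr of ducts to 12.8 for Gcg, the glucagon gene. Also bright were Spp1 of ducts (12.3), Ttr of alpha cells (11.9) and Krt7 of ducts (10.1), above the beta cell markers Mafa (7.09) and Slc2a2 (7.14). None of the marker genes was called with 6 arrays. Of the 10 beta cell markers 8 were lower in the Meg3 clone. Array medians ran from 7.02 to 7.19. Vector replicate 2 and Meg3 replicate 1 stood apart: around the median of the rest, the SD of their probe sets was 0.85 and 0.63, and for the other 4 arrays it was 0.42 to 0.48. Without this pair, a setting chosen after seeing the data, 3 markers were called, all lower in the Meg3 clone: Pcsk1 of beta cells (-0.56, limma adjusted p = 0.0163), Spp1 of ducts (-0.56, 0.00821) and Cd3e of T cells (-0.72, 0.00238). Of all genes 5.44% were called in that setting, 819 lower and 292 higher. Where leaving out the pair turned or ended a result on the members, both values are given.

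The measured differences of the PRC2 subunit genes between the clones were mostly small beside those of all genes, which does not show equal levels. Compared by limma over all 20416 genes (Meg3 minus vector, threshold for a call an adjusted p of 0.05), 0 of the 10 were called, where 0.666% of all genes were called. At an unadjusted p under 0.05 there was 1, Jarid2, where 6.96% of all genes passed. The members had a median log2 difference of -0.05 and a median absolute difference of 0.05, beside 0.01 and 0.10 over all genes. In sign, 8 were lower and 2 higher in the Meg3 clone, beside 9879 lower and 10537 higher of all genes. With the brightest probe set of each gene in place of the mean, 2 were lower and 8 higher. The median standard error of a member was 0.15, the same as that of all genes, so small differences lie inside the error. All 10 had mean values above the median of all genes. Signal also depends on the probes, so the brightness of different genes is not compared.

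**Figure D1:**
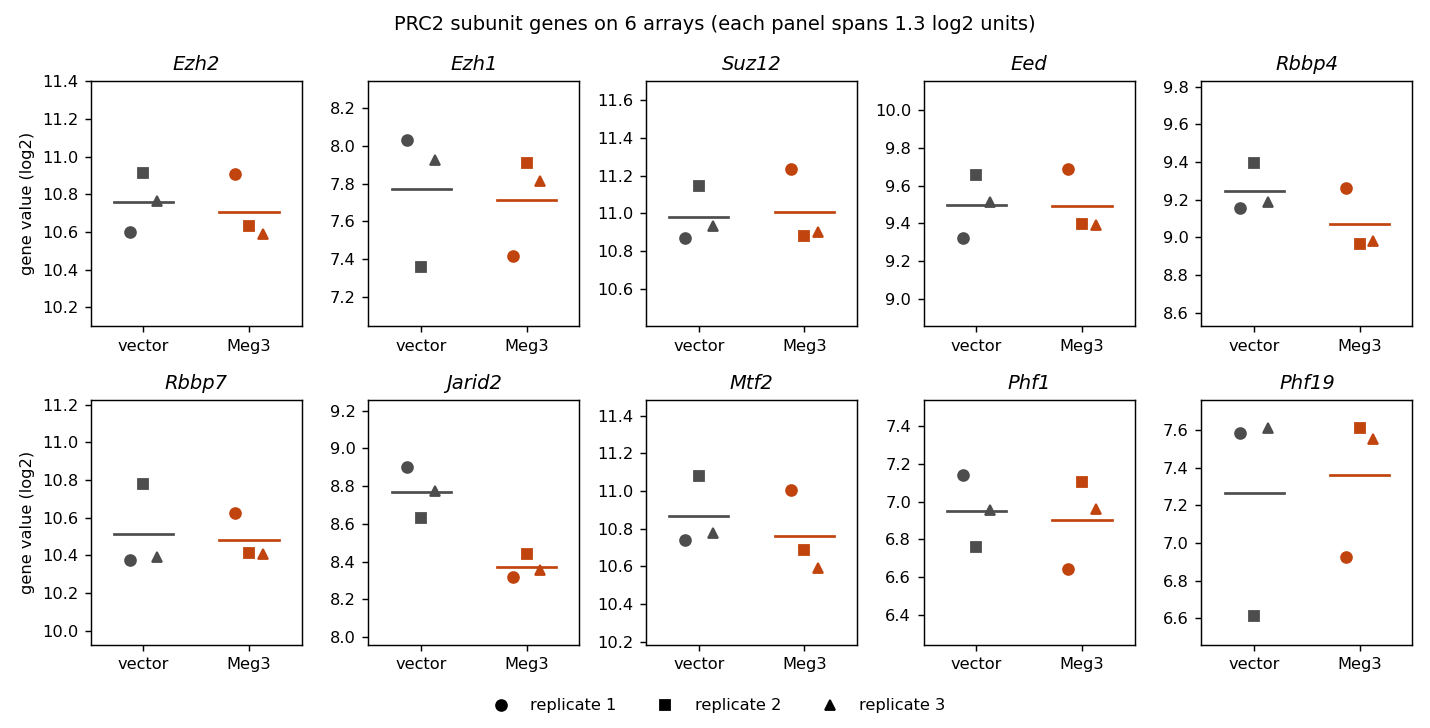
The gene value (log2) of each PRC2 subunit gene on each array, by clone, with replicates as different marks and the group mean as a bar. The Jarid2 values of the Meg3 clone, 8.32 to 8.44, all lie below those of the vector clone, 8.63 to 8.90, and the clones overlap for the other 9 genes.

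Ezh2, the main methyltransferase of dividing cells, was at 10.60, 10.91 and 10.76 in the vector cultures and at 10.91, 10.63 and 10.59 in the Meg3 cultures. The highest array of each clone read alike and the groups overlapped. The mean was 10.76 ± 0.16 (SD, n = 3) against 10.71 ± 0.17 (SD, n = 3), a log2 difference of -0.05 (95% interval -0.38 to 0.27; limma adjusted p = 1.00). That interval spans 0.771-fold to 1.21-fold, so changes of Ezh2 RNA inside it are compatible with these arrays. It is not a limit of detection, as a larger change can also fail the test over all genes. Jarid2, at 0.759-fold, was not called. None of the 21 probe sets of Ezh2 had an unadjusted p under 0.05, and their differences ran from -0.28 to 0.35.

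Ezh1, whose protein has the weaker enzyme activity and is typical of resting cells, was at 8.03, 7.36 and 7.92 in the vector cultures and at 7.42, 7.91 and 7.81 in the Meg3 cultures. Vector replicate 2 and Meg3 replicate 1 were the low arrays, and the other 4 lay between 7.81 and 8.03. The log2 difference was -0.06 (95% interval -0.54 to 0.42; limma adjusted p = 1.00). Of 24 probe sets 12 were higher and 12 lower. The lowest, probe set 10391387, picked out for its value, was at -1.35 but was dim in both clones, with means of 5.50 ± 0.86 and 4.15 ± 0.48 (SD, n = 3), and it was not called.

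The within-array log2 ratio of Ezh1 to Ezh2 signal followed those arrays rather than the clones. It was -2.57, -3.56 and -2.84 in the vector cultures and -3.49, -2.72 and -2.78 in the Meg3 cultures. The clones differed by -0.01 in this ratio (exact permutation test, two-sided, p = 1.00, the 3 paralogue ratios computed all having Benjamini-Hochberg adjusted values of 0.60 or more). With 1 array left out at a time the difference ran from -0.29 (without vector replicate 2) to 0.24 (without Meg3 replicate 1). A test of 3 against 3 arrays cannot give a p under 0.1.

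Suz12, a scaffold subunit that the complex needs for stability, was at 10.87, 11.14 and 10.93 in the vector clone and at 11.24, 10.88 and 10.90 in the Meg3 clone. The clones overlapped, with a log2 difference of 0.02 (95% interval -0.31 to 0.36), or -0.01 without the arrays that stood apart. Eed, whose protein binds methylated lysine 27 and stimulates the enzyme, was at 9.32, 9.66 and 9.51 in the vector clone and at 9.69, 9.40 and 9.39 in the Meg3 clone. Its means of 9.50 ± 0.17 and 9.49 ± 0.17 (SD, n = 3) gave a 95% interval of -0.33 to 0.32 for the difference. Both genes had a limma adjusted p of 1.00, and none of their 16 and 13 probe sets had an unadjusted p under 0.05.

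Rbbp4 and Rbbp7 encode closely related WD40 proteins that bind histones and also serve other complexes, among them NuRD. Rbbp4 was at 9.16, 9.40 and 9.19 in the vector cultures and at 9.26, 8.96 and 8.98 in the Meg3 cultures. Meg3 replicates 2 and 3 lay below every vector array and Meg3 replicate 1 did not. The log2 difference was -0.18 (95% interval -0.49 to 0.13; limma adjusted p = 1.00), and without the arrays that stood apart it was -0.20 (adjusted p = 0.290). Its probe sets did not move one way: 9 of 13 were lower, while the brightest, 10516588, read 12.43, 12.39 and 12.35 in the vector clone and 12.45, 12.55 and 12.72 in the Meg3 clone.

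Rbbp7 was at 10.38, 10.78 and 10.39 in the vector clone and at 10.62, 10.41 and 10.41 in the Meg3 clone. The clones overlapped, with a log2 difference of -0.03 (95% interval -0.38 to 0.31; limma adjusted p = 1.00), or 0.03 without the arrays that stood apart. The within-array ratio of Rbbp7 to Rbbp4 was 1.22, 1.38 and 1.21 in the vector clone and 1.36, 1.45 and 1.43 in the Meg3 clone, so only vector replicate 2 lay among the Meg3 arrays. The ratio was higher by 0.14 in the Meg3 clone (exact permutation test, two-sided, p = 0.2, Benjamini-Hochberg adjusted 0.60). With the brightest probe set of each gene it was lower, by -0.15. Another 3 probe sets carry the name of Rbbp4 or Rbbp7 beside another symbol and were left out. Those of Rbbp4 and Sync differed by -0.25 and -0.53, that of Rbbp7 and Gm6382 by 0.02, and none was called.

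Jarid2 had the largest difference of the 10 genes. JARID2 binds nucleosomes and RNA and helps bring PRC2 to its targets. Its gene value was 8.90, 8.63 and 8.77 in the vector cultures and 8.32, 8.44 and 8.36 in the Meg3 cultures. All 3 Meg3 cultures lay below all 3 vector cultures, by at least the gap between 8.63 and 8.44. The means were 8.77 ± 0.14 and 8.37 ± 0.06 (SD, n = 3), and the vector clone read 1.32-fold above the Meg3 clone (log2 difference -0.40, SE 0.12, 95% interval -0.68 to -0.12).

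That difference did not pass the test over all genes (limma, unadjusted p = 0.0109, adjusted p = 0.353). An exact permutation test gave p = 0.1, the smallest possible here. A difference at least as large in either direction was found in 5.70% of all genes, and 6.39% of all genes were lower in the Meg3 clone without overlap, so 1 such gene among 10 is near the background. Without vector replicate 2 and Meg3 replicate 1 the difference was -0.44 (SE 0.10) and Jarid2 was called (limma adjusted p = 0.0348), the 1 member called in that setting, in which 5.44% of all genes were. With 1 array left out at a time it ran from -0.47 to -0.33 with adjusted p-values from 0.0962 to 0.985.

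**Figure D2:**
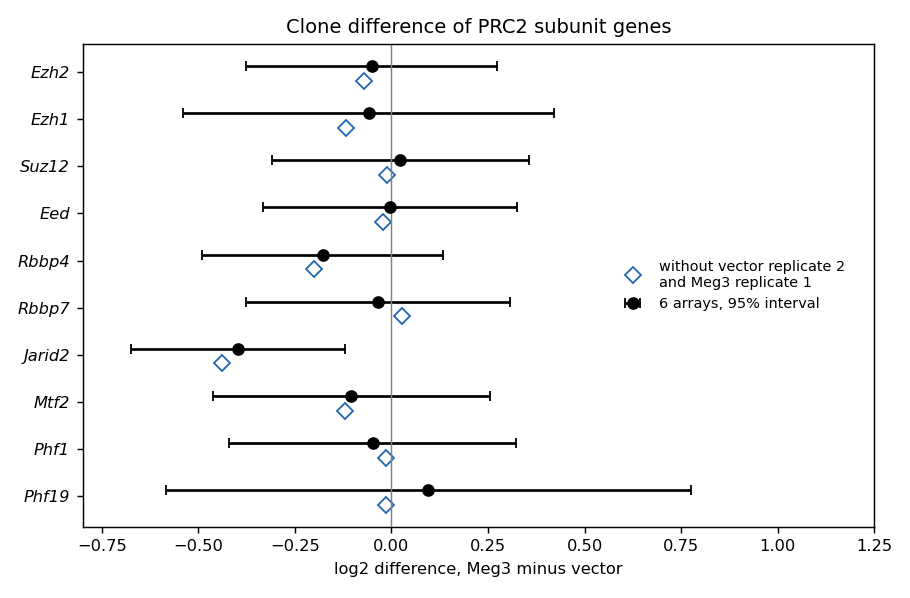
The log2 difference (Meg3 minus vector) of each PRC2 subunit gene with its 95% interval over 6 arrays, and the same without the arrays that stood apart. The interval of Jarid2, -0.68 to -0.12, lies below 0 and those of the other 9 genes include 0; none was called over all genes with 6 arrays.

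Most probe sets of Jarid2 showed the same direction. Of 21 probe sets 19 were lower in the Meg3 clone, with a median difference of -0.37. Of these, 6 had an unadjusted p under 0.05, all lower, where 3.07% of all probe sets were lower at that level. The clones did not overlap in 5 of the 21, again all lower, where 5.41% of all probe sets were. Probe sets of a gene share the same RNA samples and are not replicates. Tested one by one, none of the 167 probe sets of the members was called (limma, lowest adjusted p = 0.293, a Jarid2 probe set; 8 had an unadjusted p under 0.05, as had 5.66% of all probe sets), where 0.000828% of all probe sets were called.

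The largest Jarid2 difference was at probe set 10404864, picked out for its value. It read 6.88, 6.65 and 6.17 in the vector clone and 4.82, 5.04 and 5.36 in the Meg3 clone, which is a difference of -1.49 (SE 0.26). It lay below the median of all probe sets, and the mean over the other 20 was -0.34. The brightest Jarid2 probe set, 10404853, read 11.61, 11.20 and 11.73 in the vector clone and 11.04, 11.34 and 11.13 in the Meg3 clone, so that the clones overlapped there, with a difference of -0.34 (SE 0.22). Probe set 10404858 read 9.71, 9.24 and 9.58 against 8.89, 8.81 and 8.93, without overlap. The median of the probe sets in place of their mean gave -0.25 for the gene.

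**Figure D3:**
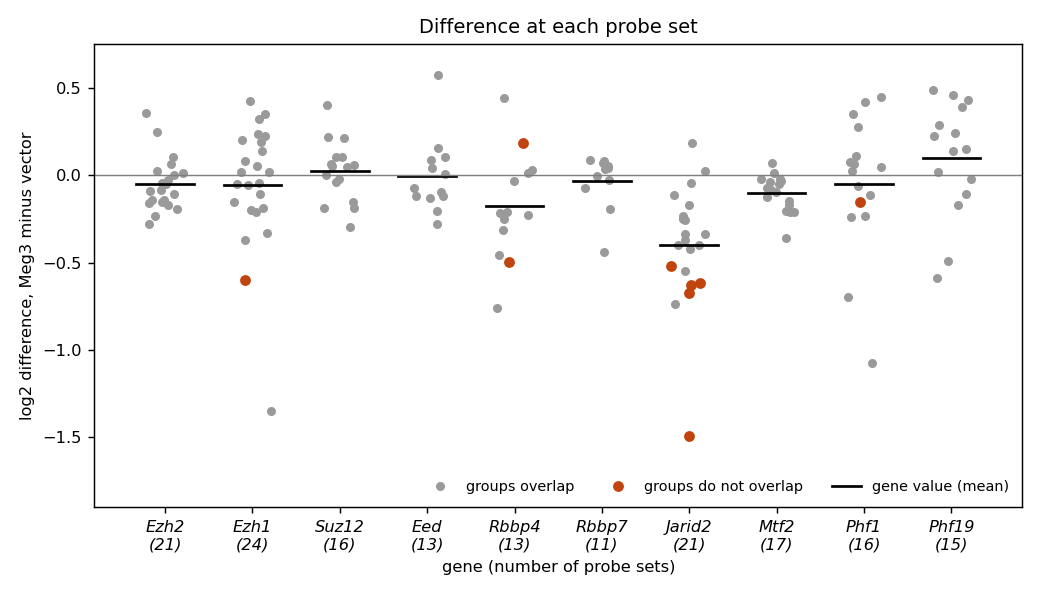
The log2 difference (Meg3 minus vector) at each probe set of the PRC2 subunit genes, coloured where the 3 arrays of one clone all lie above or below those of the other, with the gene value as a bar. Jarid2 has 19 of 21 probe sets below 0 and 5 without overlap, and no other member has more than 2 without overlap.

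The Polycomb-like genes were measured with unequal precision. Mtf2, whose protein binds CpG-rich DNA, was at 10.74, 11.08 and 10.78 in the vector clone and at 11.01, 10.68 and 10.59 in the Meg3 clone. The clones overlapped and the log2 difference was -0.10 (95% interval -0.46 to 0.25; limma adjusted p = 1.00). Its probe sets were close to each other: 15 of 17 were lower, all between -0.36 and 0.07, with an SD of 0.10. The median SD was 0.33 for the 8398 genes with 10 or more probe sets, not matched for level. Low SDs were also found for Ezh2 (0.15), Rbbp7 (0.16), Suz12 (0.18) and Eed (0.21). The remaining members ran from 0.31 for Rbbp4 to 0.40 for Phf1.

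Phf1, whose Tudor domain binds methylated histone H3, was at 7.14, 6.76 and 6.96 in the vector clone and at 6.64, 7.11 and 6.96 in the Meg3 clone. It was close to the median of all genes, 8 of its 16 probe sets lay below the median of all probe sets, and its log2 difference was -0.05 (95% interval -0.42 to 0.32). Phf19 was at 7.58, 6.61 and 7.61 in the vector clone and at 6.93, 7.61 and 7.55 in the Meg3 clone. The arrays that stood apart were the low ones in both clones. Its difference of 0.10 had the widest interval of the members, -0.58 to 0.78, which leaves room for changes from 0.667-fold to 1.71-fold. Without those arrays it was -0.01 (SE 0.10). The within-array ratio of Phf19 to Mtf2 differed by 0.20 between the clones (exact permutation test, two-sided, p = 0.5, Benjamini-Hochberg adjusted 0.75), with SDs of 0.75 and 0.59 (n = 3) inside them, and ran from -0.23 (without vector replicate 2) to 0.54 (without Meg3 replicate 1) with 1 array left out at a time.

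The members fell into 2 sets by how the arrays that stood apart read them. Ezh2, Suz12, Eed, Rbbp4, Rbbp7 and Mtf2 were highest in vector replicate 2 among the vector arrays and highest in Meg3 replicate 1 among the Meg3 arrays, by 0.21 to 0.40 over the mean of the other arrays. Ezh1, Jarid2, Phf1 and Phf19 were lowest in both, with deviations from -0.98 for Phf19 in vector replicate 2 to -0.08 for Jarid2 in Meg3 replicate 1. The place of Jarid2 rests on its mean, as its 21 probe sets were split. Vector replicate 2 was lowest of its group in 9 and highest in 9, and Meg3 replicate 1 was lowest in 9 and highest in 8. Over all genes 31.2% were highest on both of those arrays and 25.3% lowest on both, so the sets describe the arrays as well as the members. The deviation of vector replicate 2 from the rest of its group had medians of 0.25, 0.16, -0.23 and -0.11 in 4 level classes of equal size from the dimmest genes to the brightest, and that of Meg3 replicate 1 had medians of 0.09, 0.02, -0.13 and 0.03. For every member except Jarid2 both deviations were larger than the difference between the clones.

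**Figure D4:**
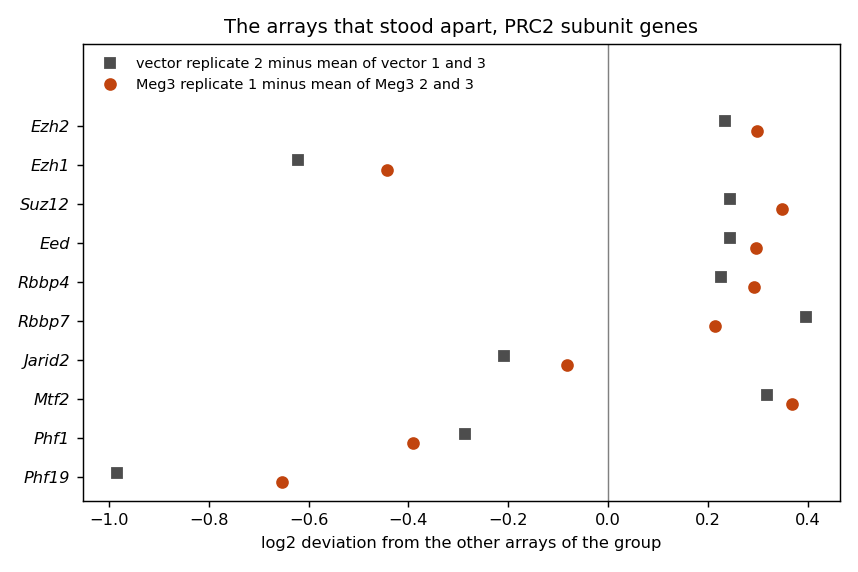
The log2 deviation of vector replicate 2 and of Meg3 replicate 1 from the mean of the other arrays of the same clone, for each PRC2 subunit gene. Both arrays deviate to the same side for every gene, upward for 6 and downward for 4.

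By the naming rule, the genes most like Ezh2 over the 6 arrays were sought among 10207 genes above the median level. They were Mettl4 (Pearson r = 0.997), Fam171b (0.989) and Skiv2l2 (0.988), with differences between the clones of -0.11, -0.02 and -0.04. The genes most like Jarid2 were Irf1, an interferon regulatory transcription factor (r = 0.998), Fbp1, a gluconeogenic phosphatase (0.997), and Cd82, a tetraspanin (0.997). These were lower in the Meg3 clone by log2 differences of -0.69 (SE 0.15), -1.09 (SE 0.18) and -1.32 (SE 0.20), and Fbp1 and Cd82 passed the test over all genes (limma adjusted p = 0.0432 and 0.0285) while Irf1 did not (0.137). Irf1, Fbp1 and Cd82 were picked for following Jarid2, which was lower in the Meg3 clone without overlap. Their lower values there follow from that choice and are no separate support for Jarid2. Each correlation is over 6 arrays that share the clones and the arrays that stood apart, and is given as a description.

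Genes that work beside PRC2 are given next. Over all genes 0.666% were called and 6.96% had an unadjusted p under 0.05, so lists this short would hold few or no called genes. Of the 5 other accessory genes, Aebp2, Epop, Lcor, Lcorl and Ezhip, 0 were called by limma (0 at an unadjusted p under 0.05), with a median difference of -0.04. Lcorl was highest at 0.26 (SE 0.20) and Epop lowest at -0.15 (SE 0.14), which was 0.00 with the pair of deviating arrays removed. Aebp2, which joins the JARID2 form of the complex, differed by 0.20 (SE 0.13), and by 0.24 in the same setting (limma adjusted p = 0.291).

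PRC1, the complex that ubiquitinates histone H2A and binds the mark made by PRC2, had 0 of 21 measured genes called by limma and 0 at an unadjusted p under 0.05 (median -0.00). Over all genes the shares were 0.666% and 6.96%. Rnf2, which encodes its ubiquitin ligase, had the lowest difference at -0.23 (SE 0.11) and Phc1 the highest at 0.13 (SE 0.26), which turned to -0.04 without the arrays that stood apart. Of the 6 genes of lysine 27 demethylases and of the H2A deubiquitinase and its partners, 0 were called and 0 passed unadjusted (limma, median -0.02). Bap1, the deubiquitinase, was at -0.22 (SE 0.19) and Asxl1 at 0.21 (SE 0.23).

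Genes of menin and the trithorax methyltransferases, which act on lysine 4 of histone H3 and oppose Polycomb, had a median of 0.11 over 13 measured, beside 0.01 over all genes. None was called by limma, where 0.666% of all genes were, and 1 passed unadjusted, where 6.96% did. That was Kmt2c at 0.33 (SE 0.12; limma adjusted p = 0.504), and Men1, the menin gene, was lowest at -0.18 (SE 0.34). Leaving out the arrays that stood apart gave a median of 0.03. NuRD, Sin3 and CAF-1 genes, whose complexes share RBBP4 or RBBP7, had 0 of 16 called by limma and 0 unadjusted (median 0.03), with Chd3 at 0.23 (SE 0.19) and Mta1 at -0.13 (SE 0.22).

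Well known Polycomb target genes did not move together. Of 24 measured, 9 lay above the median level of all genes, and 12 differences were negative and 12 positive (median 0.01). By limma 1 was called lower and 0 higher, where 0.666% of all genes were called. The called gene was Hoxb9, a homeobox gene, which fell by 1.97 (SE 0.16; limma adjusted p = 0.00224). Among the rest Tbx3, a T-box transcription factor, was highest at 0.41 (SE 0.13; adjusted p = 0.365) and Hoxc10 lowest at -0.35 (SE 0.12; adjusted p = 0.506). Without the arrays that stood apart these were 0.49 (limma adjusted p = 0.0392) and -0.44 (0.0308), and both were called. Of the 24 targets 1 was called higher and 2 lower there, Hoxb9 included, beside 5.44% of all genes. Proliferation genes, with which Ezh2 is known to rise in dividing cells, had 0 of 19 called by limma and 0 unadjusted (median 0.02). Unadjusted, 6.96% of all genes passed. Mcm3 was at 0.23 (SE 0.30) and Ccnb2 at -0.26 (SE 0.16). With the arrays that stood apart left out Mcm3 was at -0.02, and Ccnb2 was called (-0.45, limma adjusted p = 0.0298). It was 1 of 19 called there, beside 5.44% of all genes.

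**Figure D5:**
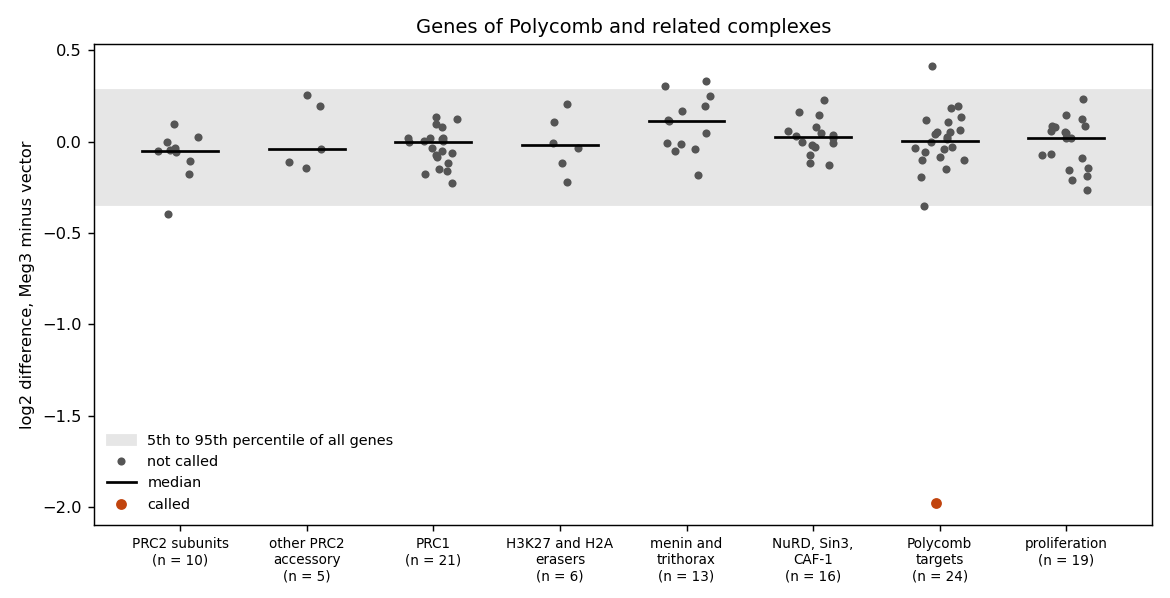
The log2 difference (Meg3 minus vector) of each gene of the PRC2 set and of related lists, with the list median as a bar and the 5th to 95th percentile of all genes, -0.34 to 0.28, shaded. Hoxb9 at -1.97 is the 1 called gene, and Jarid2 at -0.40 lies below the shaded range.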

How the data were processed

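The log2 values per probe set are as deposited by the authors; per the submitters' processing notes the tools were RMA and Partek. Their versions and a genome build: not given in the sources used here. RMA corrects background, makes the array distributions alike and summarises probes, so shifts shared by all genes cannot be seen. From 6 arrays (3 vector, 3 Meg3) and 241419 probe sets, those with 1 annotated symbol (212097) were averaged by gene; 4475 with several symbols and 24847 with none were left out. List names were matched through the GRCm38.p6 gene table. The test was limma 3.58.1 (R 4.3.3; lmFit and eBayes, two-sided, the clone as the 1 term), Benjamini-Hochberg adjusted over the 20416 genes, with no filter; intervals use the moderated standard error. The model was tested on simulated data with independent noise for each gene and shifts larger than the differences of the members. That simulation held no arrays that stood apart and so does not cover them. Arrays have no read depth, and their number limits precision. The members and lists were chosen with earlier results of these data known. Besides the members and Meg3, the genes named were, of each list, those called and the largest difference each way among the rest, and the 3 genes most correlated with Ezh2 and Jarid2; others, marker genes included, were chosen after their values were seen. Alternatives were a replicate block, median centring, repeated quantile normalization, dropping the dimmest 30%, trend and robust eBayes, the brightest or the median probe set, and leaving out arrays.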

Additional observations from a re-analysis of the deposited data

How the results depend on the processing

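Jarid2 stayed lower under all 14 alternatives, from -0.47 to -0.25, and was called in 1 of them, without vector replicate 2 and Meg3 replicate 1 together. In most of them its sign could not turn. Every Meg3 array read below every vector array, so leaving out arrays keeps the direction. The replicate block, dropping the dimmest 30%, and trend and robust eBayes do not change the difference. The other 9 members were not called under any alternative. With the brightest probe set of each gene the sign turned for Ezh1 (0.053), Eed (0.10), Mtf2 (0.015), Phf1 (0.023), Rbbp4 (0.18) and Rbbp7 (0.035), and with the median of the probe sets for Ezh1 (0.087), Ezh2 (0.016) and Suz12 (-0.016). Without both arrays that stood apart it turned for Suz12 (-0.012), Phf19 (-0.015) and Rbbp7 (0.027). With 1 array left out at a time the ranges were -0.27 to 0.089 for Ezh1, -0.15 to 0.027 for Ezh2, -0.093 to 0.10 for Suz12, -0.10 to 0.076 for Eed, -0.23 to 0.0024 for Mtf2, -0.15 to 0.081 for Phf1, -0.23 to 0.31 for Phf19 and -0.11 to 0.098 for Rbbp7. The Rbbp7 to Rbbp4 ratio difference was -0.15 with the brightest probe sets, 0.0044 with their median and 0.23 without both arrays.

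Of all genes 136 were called, against 30 with the replicate block, 40 with the brightest probe set, 58 with the median probe set and 1111 without both arrays, and 22 to 349 with 1 array left out. Of all probe sets 2 were called, against 0 with the replicate block, 25 after median centring, 25 after repeated quantile normalization, 27 without the dimmest 30%, 16 with trend and robust estimation, 0 without both arrays and 0 with any 1 array left out. The samples share only a replicate number: deviations of same-numbered arrays from their group means correlated at -0.61, -0.63 and 0.28. The block cannot change the Jarid2 difference of -0.40, and under it the limma adjusted p was 1.00. The causes of these changes were not tested.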
